A study of Drosophila melanogaster with 44 samples.

Results

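The vitelline membrane genes Vm26Aa, Vm26Ab, Vm26Ac, Vm34Ca, Vm32E, Vml and psd of Drosophila melanogaster were examined in mRNA-seq data from ovaries and from cultured ovarian somatic cells (OSC). They were chosen by FlyBase symbol, mapped from the gene identifiers, and they are 7 of the 17807 genes listed for every library. All 7 were listed in all 12 libraries.

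The study asked how variants of Mod(mdg4), a BTB domain chromatin protein with many C-terminal variants, act on gene expression in the ovary and in OSC, a line of cultured follicle cells. Untreated ovaries came from y1 w1118 flies (wild type, 3 libraries) and from flies that carry Mod(mdg4) RN1-2/1-2 in the same y1 w1118 background (Mod(mdg4)-N mutant, 3 libraries). The mutant is homozygous for a single CRISPR frameshift line in the exon specific to variant N, its females are sterile, and no age is stated for either group. OSC received siRNA to EGFP as the control (EGFP KD), to variant N (Mod(mdg4)-N KD) or directed at every Mod(mdg4) variant (Mod(mdg4)-All KD), with 2 libraries each. All OSC are a single line without germline cells, and the knockdowns are transient.

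The vitelline membrane is the innermost proteinaceous layer of the insect eggshell. Somatic follicle cells that surround the oocyte secrete its proteins in mid-oogenesis, while the oocyte takes up yolk, and the chorion is laid over it afterwards. Small proteins with a shared vitelline membrane domain form most of the layer, and they become crosslinked as the egg matures. Vitelline membrane transcripts therefore mark an earlier state of the follicular epithelium than chorion transcripts do.

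The 6 ovary libraries held between 16456288 and 20244538 expected counts and the 6 OSC libraries between 13728168 and 18546726. Normalized counts of mod(mdg4), summed over its variants, were 668 to 926 in wild-type and 467 to 684 in mutant ovary. In OSC they were 590 to 616 with EGFP KD, 546 to 564 with Mod(mdg4)-N KD and 107 to 109 with Mod(mdg4)-All KD, and a gene total cannot show the loss of variant N alone. Wild-type replicate 1 stood apart from the other 5 ovary libraries. Its 9 chorion protein genes summed to 34.1 normalized counts, against 3649 to 9091 in the others, and results on the vitelline membrane genes are given with and without it. Ovary libraries held both follicle cell markers (tj, Fas3 and zfh1, sum 172 to 295) and germline markers (6 genes, sum 2724 to 3714), whereas in OSC the same sums were 887 to 1019.6 and 13.8 to 24.2.

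Of the 7 genes, 4 lie in 1 cluster of 7948 bases on chromosome arm 2L (Release 6 of the genome, 5957004 to 5964951). In order along the arm these are Vm26Ab (5957004 to 5957639, plus strand), Vm26Ac (5958005 to 5958631, minus strand), Vm26Aa (5959596 to 5960340, minus strand) and psd (5963087 to 5964951, minus strand). Vm32E (11171167 to 11171665, minus strand) lies further along 2L within an intron of Ca-beta, a gene on the same strand, and Vm34Ca is at 13411141 to 13411631 on the minus strand. Vml is on the X chromosome, at 2275822 to 2277781 on the plus strand. Annotated transcripts of 6 of the genes have a single exon, and the longer psd transcript has 2. The coding regions of the small Vm genes run from 116 codons in Vm32E, through 119 in Vm34Ca, 141 in Vm26Aa and 168 in Vm26Ab, to 181 in Vm26Ac, whereas psd has 381 and Vml 578.

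The bases before the transcription starts were read from the Release 6 genome to see what the 7 genes share in sequence. The 100 bases that end just before each gene's outermost annotated start are printed 5′ to 3′ on the strand of the gene, with the 3 motifs described after them in capitals on either strand.
Vm26Aa: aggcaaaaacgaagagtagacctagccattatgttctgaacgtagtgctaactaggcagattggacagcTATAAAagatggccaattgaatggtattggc
Vm26Ab: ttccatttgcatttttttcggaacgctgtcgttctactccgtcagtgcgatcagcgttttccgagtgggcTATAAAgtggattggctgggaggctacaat
Vm26Ac: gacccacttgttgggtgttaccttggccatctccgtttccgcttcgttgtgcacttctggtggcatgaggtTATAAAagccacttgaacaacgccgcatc
Vm34Ca: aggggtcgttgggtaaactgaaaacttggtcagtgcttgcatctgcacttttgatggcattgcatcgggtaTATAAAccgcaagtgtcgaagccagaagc
Vm32E: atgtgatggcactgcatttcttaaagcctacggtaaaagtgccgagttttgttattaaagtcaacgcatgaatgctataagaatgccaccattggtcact
Vml: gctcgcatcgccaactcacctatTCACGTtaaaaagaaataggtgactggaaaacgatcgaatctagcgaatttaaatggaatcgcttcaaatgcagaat
psd: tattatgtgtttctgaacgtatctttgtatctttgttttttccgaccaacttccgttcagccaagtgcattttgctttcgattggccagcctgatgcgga
In the same order they lie at chr2L:5960341-5960440, chr2L:5956904-5957003, chr2L:5958632-5958731, chr2L:13411632-13411731, chr2L:11171666-11171765, chrX:2275722-2275821 and chr2L:5964952-5965051. Vml has a second start further in, at X:2275950. Of the bases before that start, 30 (40 to 11 before it, chrX:2275910-2275939) are shown because they hold its TATAAA.
Vml, second start: ttttctcttggccaTATAAAacccgtcccg

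TATAAA, the core of the TATA box, was the most regular feature. It began 31 bases before the start of Vm26Aa, 30 before that of Vm26Ab, 29 before those of Vm26Ac and Vm34Ca and 26 before the second start of Vml. At 40 to 20 bases before a start and on the strand of the gene, TATAAA was thus present for 5 of the 9 distinct starts of the 7 genes and for 6.14% of 23422 annotated starts of all genes listed. Vm32E, the outer Vml start and both psd starts had none in that window. Anywhere from 250 bases before to 50 after the start, on either strand, 7 of the 9 starts and 41.6% of all starts held TATAAA. The motif TCACGT, known from insect chorion promoters, was in the same window for Vm34Ca (114 bases before) and for both Vml starts, where it is the same site, and in 6.98% of all starts. AGGTCA, a half-site of nuclear hormone receptors such as the ecdysone receptor, was there for Vm26Ab (247 bases before) and for the inner psd start (86 bases before, opposite strand), and in 5.77% of all starts. These matches describe the letters and say nothing of binding.

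In wild-type ovary the 7 genes spanned a wide range of levels. On the TPM scale, which allows for transcript length, Vm26Aa was highest with 5590.2 ± 476 (SD, n = 3) and ranked 13 among all genes. Vm34Ca followed with 4313 ± 449 (rank 34) and Vm26Ab with 2176 ± 274 (rank 100). Vm32E had 626 ± 464, Vml 143 ± 60.8, psd 117 ± 14.4 and Vm26Ac 56.7 ± 70.1. The upper 3 did not overlap in their libraries, whereas the range of Vml (73.6 to 185) held that of psd (102 to 130), and that of Vm26Ac (4.81 to 136) overlapped both. Together the 7 genes took 0.400% to 0.474% of all counts in wild-type libraries. Of their summed TPM, Vm26Aa gave 42.0% to 44.1%, Vm34Ca 31.7% to 33.9% and Vm26Ab 14.4% to 18.9%.

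In mutant ovary the transcripts of most of these genes were more abundant. By edgeR's quasi-likelihood test with Benjamini-Hochberg adjustment over all 7934 genes tested, 4 of the 7 rose (Vm26Aa, Vm26Ab, Vm34Ca and psd) and none fell, where 11.7% of all tested genes were called higher. In 5 of the 7 genes (the same 4 and Vm32E) every mutant library lay above every wild-type library, which held for 23.6% of all tested genes. All 7 fold changes were above 1, with a median log2 fold change of 1.42, against -0.01 over all tested genes. The 7 genes passed the filter on low counts in every ovary library. Because whole ovaries were sequenced, more cells of a type and more RNA per cell cannot be told apart, and in the same way fewer cells and less RNA.

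**Figure D1:**
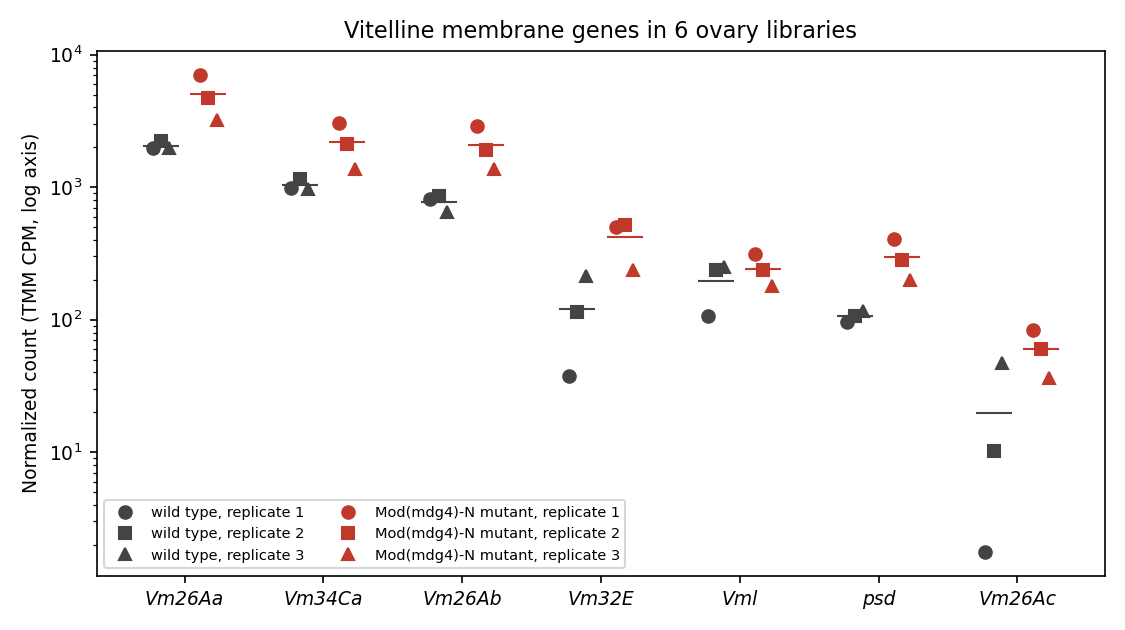
Normalized counts (TMM CPM, log axis) of the 7 vitelline membrane genes in each ovary library, with wild-type libraries in grey, mutant libraries in red, the replicate number as the symbol and group means as lines. Mutant values of Vm26Aa, Vm34Ca, Vm26Ab, Vm32E and psd lie above all wild-type values, and wild-type replicate 1 is lowest in Vm32E, Vml and Vm26Ac.

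Vm26Aa encodes 1 of the main structural proteins of the layer. Its normalized counts (CPM after TMM scaling) were 1972, 2236 and 1969.9 in wild-type replicates 1 to 3 and 7072, 4727 and 3239 in mutant replicates 1 to 3. The wild-type libraries were nearly level, while the mutant libraries differed among themselves by up to 2.18-fold and were all higher. The means were 2059 ± 153 and 5013 ± 1932 (SD, n = 3 each), and the log2 fold change was 1.28 (SE 0.27, adjusted p = 0.0258).

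Vm26Ab encodes another major component (sV23), which is needed for a stable vitelline membrane and for fertility. It had 815, 853 and 649.6 normalized counts in wild-type and 2916, 1915 and 1369 in mutant libraries. The groups were apart, with the lowest mutant library 1.60 times the highest wild-type library. Its log2 fold change was 1.42 (SE 0.28, adjusted p = 0.0217).

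Vm34Ca, another structural gene of the family, away from the cluster, had 987, 1148 and 969 normalized counts in wild-type and 3048, 2121 and 1372 in mutant libraries. Among the 4 genes that rose it changed least (log2 fold change 1.08, SE 0.28, adjusted p = 0.0415), and its groups were separated by 1.20 times.

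psd (palisade) is required for vitelline body assembly and for an intact membrane. At a far lower level than its cluster neighbours, it had 96.6, 107 and 116 normalized counts in wild-type and 407, 283 and 198 in mutant libraries. Wild-type libraries agreed to within 1.20-fold, and each mutant library was at least 1.71 times above them. The log2 fold change was 1.47 (SE 0.25, adjusted p = 0.0154).

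Vm32E encodes a late member of the family that is restricted to part of the follicular epithelium. It had 37.5, 113 and 213 normalized counts in wild-type and 503, 518 and 236 in mutant libraries. Here wild type itself spread 5.67-fold, and the groups were separated by 1.11 times. The log2 fold change of 1.79 (SE 0.61) had an adjusted p of 0.0846 and was not called by edgeR. DESeq2 called it, with an adjusted p of 0.0494.

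Vm26Ac, the third Vm gene of the cluster and the lowest of the 7, had 1.77, 10.2 and 47.3 normalized counts in wild-type and 83.6, 60.3 and 36.0 in mutant libraries. Its wild-type libraries spread 26.7-fold and overlapped the mutant libraries. The log2 fold change was 1.60 (SE 0.96, adjusted p = 0.260). It ran from 1.05 without wild-type replicate 1 to 3.32 without wild-type replicate 3, and was not called in either case.

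Vml, a long vitelline membrane-like protein that carries the sulphated mark for dorsoventral patterning, had 106, 237 and 249 normalized counts in wild-type and 315, 236 and 179 in mutant libraries. The groups overlapped, and the log2 fold change was 0.30 (SE 0.35, adjusted p = 0.543). Without wild-type replicate 1 it was -0.0018 (adjusted p = 0.996).

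The calls in ovary rested on few libraries. Without wild-type replicate 1, which nearly lacks chorion transcripts, 1 of the 7 genes was called (psd, log2 fold change 1.40, adjusted p = 0.0479, where 6.90% of 8061 tested genes were called higher), and Vm26Aa (1.25), Vm26Ab (1.46) and Vm34Ca (1.04) had adjusted p between 0.0530 and 0.0942. Without wild-type replicate 3 the call of psd alone was kept, where 6.34% of all tested genes were called higher. Without mutant replicate 1, 3 of the 7 were called, where 7.26% were called higher. Without wild-type replicate 2 or mutant replicate 2 none of the 7 was called, where 1.51% and 1.69% were called higher. The count of all called genes, in both directions, fell from 1438 to 816, 838, 158 and 184 in these 4 cases. A block for the replicate number raised the count of all called genes to 2279, among them the same 4 vitelline membrane genes. In that fit 14.8% of all tested genes were called higher.

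Vm26Aa, Vm34Ca and Vm26Ab kept similar proportions to each other across the ovary libraries. Relative to Vm26Aa, Vm32E, Vm26Ac and Vml varied more among wild-type libraries. The ratio of Vm26Aa to Vm34Ca TPM was 1.27 to 1.33 in wild-type and 1.45 to 1.54 in mutant libraries. The ratio of Vm26Ab to Vm34Ca was 0.455 to 0.558 and 0.610 to 0.675. Neither range overlapped between the groups, and an exact two-sided permutation test over libraries gave p = 0.10 for each, the smallest that 3 against 3 allow (0.35 after adjustment over 7 ratios, which were chosen after the values were seen). The Vm26Aa to Vm26Ab ratio, by contrast, was 2.33 to 2.91 in wild type and 2.28 to 2.38 in the mutant (exact permutation p = 0.30). Vm32E relative to Vm26Aa ran from 0.0357 to 0.202 in wild type and from 0.134 to 0.207 in the mutant, and Vm26Ac relative to Vm26Aa from 0.000929 to 0.0249 and from 0.0115 to 0.0132. The mutant libraries lay within the wild-type range, except for the highest Vm32E value just above it (exact permutation p = 0.40 for each). Vml relative to Vm26Aa was 0.0142 to 0.0337 in wild type and 0.0118 to 0.0146 in the mutant, and Vm26Aa relative to psd was 42.1 to 51.4 and 40.7 to 42.9 (exact permutation p = 0.20 for each). Within same-numbered pairs of libraries, the ratios of Vm26Aa and of Vm26Ab to Vm34Ca were higher in the mutant in 3 of 3 pairs, and those of Vml to Vm26Aa and of Vm26Aa to psd were lower in 3 of 3. An exact two-sided sign-flip test over the pairs, added after the data were seen, gave p = 0.25 for each of these 4 ratios, the smallest that 3 pairs allow.

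The size of the spread among the wild-type libraries differed between the genes. Vm26Aa, Vm26Ab, Vm34Ca and psd varied by 1.14-fold, 1.31-fold, 1.19-fold and 1.20-fold between their highest and lowest wild-type library, whereas Vm32E varied by 5.67-fold, Vm26Ac by 26.7-fold and Vml by 2.35-fold. These 3 genes and psd were lowest in replicate 1 and highest in replicate 3, as were the summed chorion transcripts (34.1, 4833 and 9091). In the mutant the chorion sums were 3649, 5257 and 8537, and 6 of the 7 genes, all but Vm32E, ran in the opposite order, highest in replicate 1 and lowest in replicate 3. With 3 libraries a group this is given as values only.

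**Figure D2:**
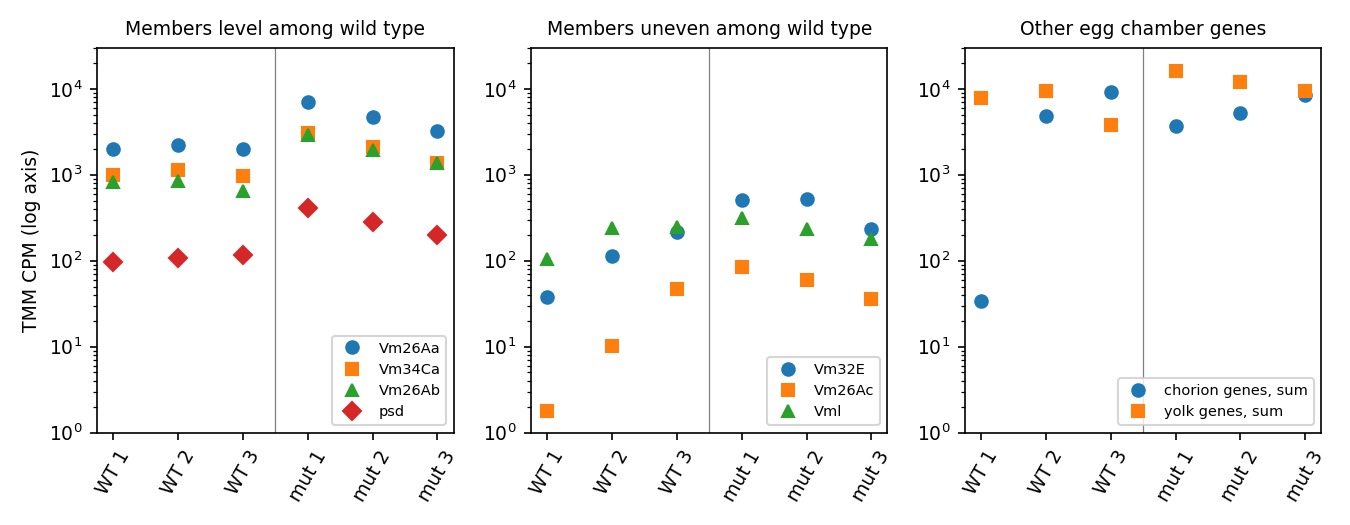
Normalized counts (TMM CPM, log axis) in the 3 wild-type (WT) and 3 mutant (mut) ovary libraries of the genes that were level among wild-type libraries (left), of those that were uneven (middle), and of the summed chorion and yolk protein genes (right). Replicate 1 of wild type has 34.1 chorion counts but 1972 of Vm26Aa.

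In mutant ovary psd and Vml were apart in TPM, whereas their ranges overlapped in wild type. TPM of Vm26Aa was 13658 ± 4185 (rank 3 of all genes), of Vm34Ca 9127 ± 2819 (rank 4), of Vm26Ab 5851 ± 1751 (rank 8) and of Vm32E 2165 ± 733 (rank 94). psd had 326 ± 91.3 and lay above Vml (177 ± 35.7) without overlap, and Vm26Ac had 169 ± 54.6, which overlapped Vml. In all, the 7 genes took 0.682% to 1.37% of the counts of a mutant library.

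Other genes of the eggshell and of the follicular epithelium were set beside these 7. Of 10 further vitelline and eggshell genes, 9 were tested, with a median log2 fold change of 0.89. Of these, 3 rose and none fell, where 11.7% of all tested genes were called higher. The 3 were dec (defective chorion, an early eggshell matrix protein, log2 fold change 1.77, SE 0.48, adjusted p = 0.0477), ndl (nudel, a protease of the egg surface, 1.18, SE 0.27, adjusted p = 0.0315) and clos (closca, needed for eggshell hardening and terminal patterning, 0.89, SE 0.15, adjusted p = 0.0156). Without wild-type replicate 1 only clos of the 9 was called, with an adjusted p of 0.0205, where 6.90% of all tested genes were called higher.

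None of the 9 chorion protein genes was called by edgeR, 0 of 9 at an unadjusted p under 0.05, and their median log2 fold change was 0.26. Their SE ran from 1.07 (Cp7Fc) to 1.70 (Cp19), against 0.25 to 0.28 for the 4 called vitelline membrane genes. At that spread the lack of a call does not show that the chorion genes were unchanged. Every mutant library lay above every wild-type library for Cp7Fb (2.02) and Cp7Fc (2.06). This held for 2 of the 9, near the 23.6% of all tested genes. Without wild-type replicate 1 the chorion median was -0.33, and Cp7Fb (1.44) and Cp7Fc (1.48) were called higher, as were 6.90% of all tested genes. Of the yolk protein genes, which the same follicle cells and the fat body express, Yp3 rose (log2 fold change 1.36, SE 0.27, adjusted p = 0.0216, but 1.33 and 0.0568 without wild-type replicate 1), and Yp1 (0.73, adjusted p = 0.195) and Yp2 (0.78, adjusted p = 0.168) were not called. Summed TPM of the 7 vitelline membrane genes over that of the yolk protein genes was 1.74 to 3.87 in wild-type and 2.44 to 3.15 in mutant libraries, so that these ranges overlapped. Over the follicle cell markers, which differed in direction among themselves, the same ratio was 126 to 203 and 298 to 400.2, without overlap. The ratio was also apart over the germline markers (8.32 to 11.3 and 14.2 to 25.6) and over the muscle and mature follicle markers. Over the chorion protein genes it was 0.685 to 101 and 1.17 to 4.72, which overlapped. Over the other vitelline and eggshell genes it was 13.7 to 38.4 in wild-type and 12.1 to 23.2 in mutant libraries, which overlapped.

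Among 8 tested regulators of follicle cell differentiation, br (broad, an ecdysone-induced transcription factor) rose by 1.24 on the log2 scale (SE 0.26, adjusted p = 0.0242), and none fell. A count of 1 in 8 is near the 11.7% of all tested genes called higher. Of the receptor genes, EcR stood at 0.21 on the log2 scale (adjusted p = 0.551) and usp at -0.25 (adjusted p = 0.130). The follicle cell markers differed in direction, with tj at 0.71 (adjusted p = 0.104), Fas3 at -0.28 (adjusted p = 0.640) and zfh1, which fell by 0.61 (adjusted p = 0.0212). Of 6 germline markers, bam (1.74, adjusted p = 0.0033) rose and vas (-0.50, adjusted p = 0.0222) fell. Without wild-type replicate 1, vas stood at -0.49 (adjusted p = 0.0561) and was not called.

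Markers of other tissues and of mature follicles moved with the groups in part. All 5 muscle markers had fold changes below 1 (median log2 -0.57, none called), with a summed level of 106 to 225 in wild-type and 72.0 to 126 in mutant libraries. All 3 markers of mature follicles were below 1 as well (median log2 -0.92, none called, 136 to 171 in wild type and 62.1 to 97.6 in the mutant). Without wild-type replicate 1, Mmp2 stood at 0.43 on the log2 scale, Oamb at -1.13 and Ilp8 at -1.37. The fat body markers summed to 14.2 to 246 and 5.41 to 42.4, nearly all apolpp, with Fbp1 at 0 to 0.05 in every ovary library, and the 2 hemocyte markers to 0.16 to 2.14 and 1.06 to 1.94. Their part in the change of the vitelline membrane genes was not tested.

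**Figure D3:**
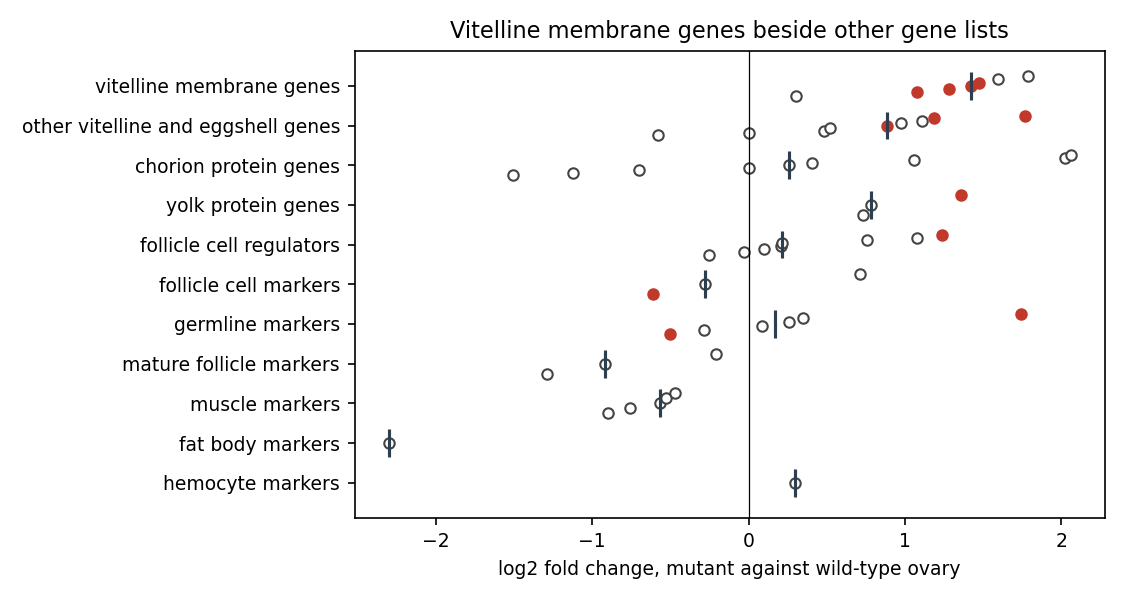
Log2 fold change between mutant and wild-type ovary for each tested gene of each list, with genes that passed an adjusted p of 0.05 filled in red and the list median as a bar. The vitelline membrane genes have a median of 1.42, the other vitelline and eggshell genes of 0.89, the yolk protein genes of 0.78 and the chorion protein genes of 0.26.

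Genes next to the 2L cluster were examined to see whether the change was shared along the chromosome. CG13998, the tested gene nearest to Vm26Ab, had 1.10 to 1.77 normalized counts in wild-type and 2.40 to 8.26 in mutant libraries (log2 fold change 1.78, SE 0.51, adjusted p = 0.0568). On the psd side, CG13992 had 27.8 to 53.0 and 39.6 to 95.7 (0.60, SE 0.39, adjusted p = 0.290). CG9044 on the far side of CG13998 stood at -0.11 (SE 0.10, adjusted p = 0.418). None of the 3 was called. Of the tested neighbours of the other 3 genes, CG6287 beside Vm32E rose by 0.75 (SE 0.13, adjusted p = 0.0158), and Boh2, CG7110, Grp170 and CG2865 had log2 fold changes from -0.30 to 0.05 and were not called.

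The 5 genes outside the list whose pattern over the 6 ovary libraries was most like the mean pattern of the 7 were CG46321, CG4829, tyn, Dtg and ndl. Likeness was the root mean square difference of centred log2 CPM, which was 0.115, 0.121, 0.175, 0.187 and 0.220 for these genes in turn. The 7 genes themselves lay between 0.267 (psd) and 1.08 (Vm26Ac) from their own mean. tyn, which encodes a zona pellucida domain protein of epithelial surfaces, had 6.35, 7.98 and 10.9 normalized counts in wild-type and 29.8, 26.5 and 16.1 in mutant libraries. ndl had 63.3, 81.8 and 98.3 in wild-type and 254, 168 and 131 in mutant libraries. CG46321, CG4829 and Dtg were near the filter, at 0.12 to 5.93 normalized counts.

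In OSC the vitelline membrane genes were almost silent. Expected counts per library were 11 to 35 for Vm26Aa, 1 to 3 for Vm26Ab, 0 to 1 for Vm26Ac, 0 to 4 for Vm34Ca and 0 to 1 for Vm32E, so that 4 of the genes were near or below 3 counts, the smallest number taken as measurable. With EGFP KD, Vm32E had 0 counts in both libraries, and in total-count CPM it was at least 666-fold higher in wild-type ovary, with 3 counts per library as the floor. Vml (115 to 198 counts) and psd (16 to 46 counts) were the best measured, with 4.80 ± 0.31 and 2.32 ± 0.64 TPM with EGFP KD (n = 2), and Vm26Aa had 4.84 ± 0.85 TPM. The order of levels thus differed from ovary, since Vml gave 36.6% to 61.3% of the summed TPM of the 7 genes in OSC and 0.520% to 1.41% in ovary.

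The test of the knockdowns covered Vm26Aa, Vml and psd, as the other 4 genes did not pass the filter. With Mod(mdg4)-N KD, 0 of the 3 was called by edgeR, DESeq2 or limma-voom, where 0.0247% of 8106 tested genes were called. By edgeR the unadjusted p of psd was 0.0392, which did not hold after adjustment over all tested genes. psd had 2.06 and 2.83 normalized counts with EGFP KD and 0.86 and 1.67 with Mod(mdg4)-N KD (log2 fold change -0.98, SE 0.39, adjusted p = 0.9998). These are 35 and 46 against 16 and 24 counts. The log2 fold change of psd ran from -0.54 without Mod(mdg4)-N KD replicate 1 to -1.49 without Mod(mdg4)-N KD replicate 2, and was -0.60 with log2(TPM + 1). Vm26Aa (-0.14, SE 0.34) and Vml (0.04, SE 0.22) overlapped between the groups.

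With Mod(mdg4)-All KD, again 0 of the 3 was called by edgeR, DESeq2 or limma-voom, where 1.1% of 8126 tested genes were called. By edgeR the unadjusted p of Vml was 0.0034, which did not pass 0.05 after adjustment over all tested genes. Vml had 7.18 and 7.86 normalized counts with EGFP KD and 15.0 and 11.8 with Mod(mdg4)-All KD. The log2 fold change was 0.83 (SE 0.18, adjusted p = 0.128). Without Mod(mdg4)-All KD replicate 2 it was 1.00 (adjusted p = 0.0164). Vm26Aa (-0.26, SE 0.49, adjusted p = 0.872) and psd (-0.32, SE 0.36, adjusted p = 0.769) were not called. Both knockdowns are compared with the same 2 EGFP KD libraries.

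**Figure D4:**
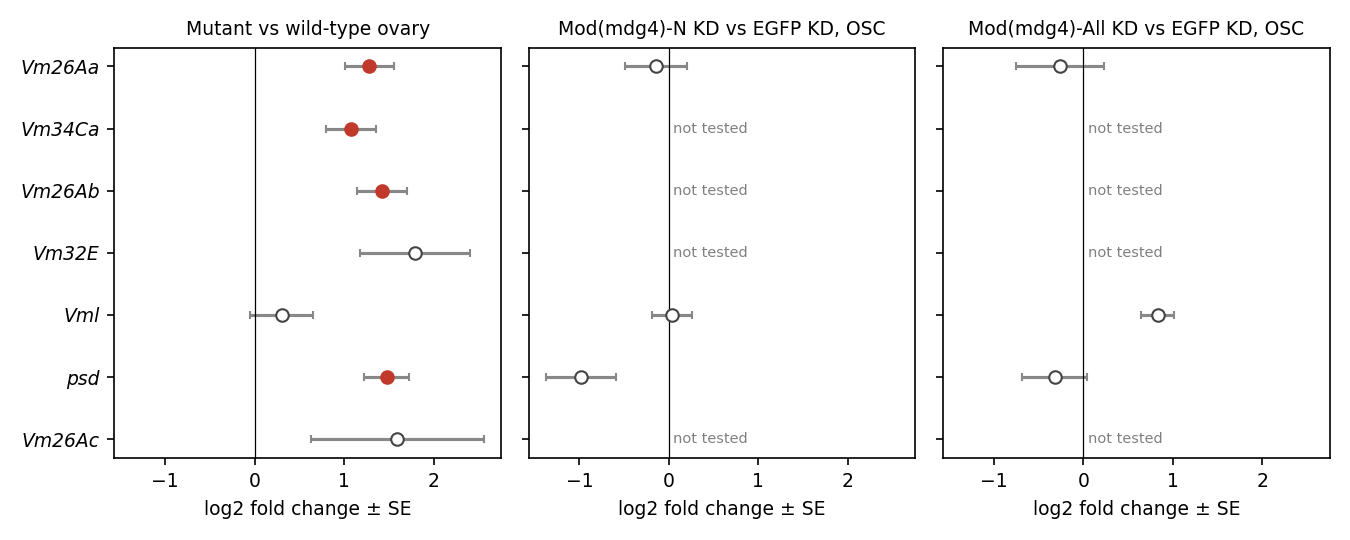
Log2 fold changes with standard errors of the 7 genes in the 3 comparisons, filled where the adjusted p was under 0.05. Of the 7, 4 are filled in ovary (1.08 to 1.47) and none in OSC, where 4 were below the filter on low counts.

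The effect of Mod(mdg4)-N loss in ovary was compared with that of its knockdown in OSC in a single model over 10 libraries, a test added after the data were seen, in which 3.31% of 9011 genes were called. For psd the 2 effects differed by 2.44 on the log2 scale (SE 0.54, adjusted p = 0.0479), with 0.0631 when the replicate number was a block. For Vm26Aa they differed by 1.41 (SE 0.53, adjusted p = 0.177) and for Vml by 0.24 (SE 0.57, adjusted p = 0.835). The other 4 genes were too low in OSC for the difference to be read.

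The estimated mean transcript length pointed to different Vml transcripts in the 2 sources. Vml has a transcript of 1832 bases from the inner start and 1 of 1960 bases from the outer start 128 bases upstream, and RSEM estimates how much of each is present. In all 6 OSC libraries the mean length was 1960 bases, which is the longer transcript alone. In the 6 ovary libraries it was 1832 to 1834.6 bases, which corresponds to 0% to 2.05% of the longer transcript. The share was thus apart in every library of the 2 sources, at 115 to 198 counts in OSC and 1733 to 5416 in ovary, and wild-type and mutant ovary overlapped. The outer start is the one without a TATAAA, and the inner start has it 26 bases before. These are model estimates from gene totals, read positions were not used here, and the difference has no test.

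For psd the longer transcript (1543 bases, outer start) was estimated at 12.0% to 15.2% in ovary and at 0% to 68.4% in OSC, where few counts support it. Vm26Aa was almost wholly the shorter transcript in all 12 libraries, with at most 0.788% of the longer, and Vm32E had 1.76% to 5.29% of the longer transcript in ovary. Here the mutant libraries (1.76% to 2.94%) were below the wild-type libraries (4.18% to 5.29%) without overlap, a pattern noticed after the values were seen and not tested.

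**Figure D5:**
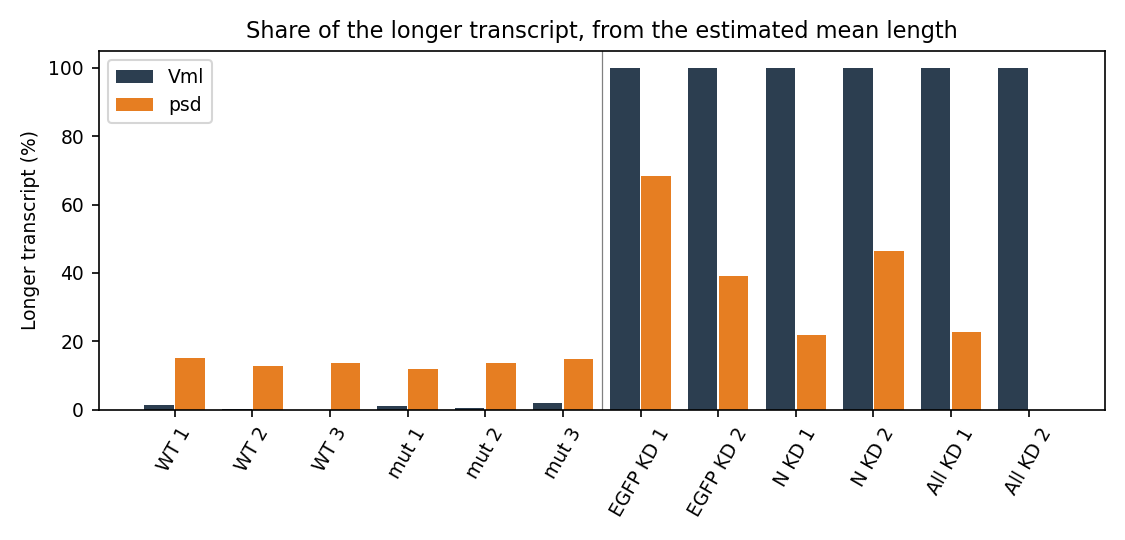
Share of the longer transcript of Vml and psd (%), computed from the mean transcript length estimated per library, in ovary (left of the line) and OSC (right). Vml is at 0% to 2.05% in ovary and at 100% in all 6 OSC libraries.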

How the data were processed

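Poly(A)+ RNA libraries from a stranded kit were mapped to dm6 with RSEM and STAR by the authors, who deposited a table per library. The expected counts deposited by the authors are not normalized for depth or length, and the TPM deposited by the authors are scaled to the same sum per library. Fractional values made up 15.7% of nonzero expected counts (tolerance 0.001), but all 84 values of the 7 genes were whole. The annotation and tool versions are not given in the sources used here. The listed RSEM options name no strandedness, so reads of genes overlapping on opposite strands may be shared.

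Symbols and positions came from Ensembl release 115 and sequences from the RefSeq copy of the Release 6 genome. Counts were rounded, genes with over 1 CPM in at least 3 ovary or 2 OSC libraries were kept, libraries were scaled by TMM, and groups were compared with edgeR 4.0.16 (quasi-likelihood F test with the older algorithm, R 4.3.3) over all genes, with an adjusted p under 0.05 as the threshold. The SE is the log2 fold change over the square root of F. The edgeR test was checked on simulated counts. Alternatives were RLE factors, total counts, DESeq2 1.42.0, limma-voom (limma 3.58.1), the newer edgeR algorithm, other filters, a replicate block, log2(TPM + 1), a joint OSC fit and each replicate left out.

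The named genes were the 7 members, genes of fixed lists and the 5 genes of most similar ovary pattern (log2 of CPM + 0.5). Members and lists were chosen with earlier results of these data known. Replicate numbers come from the sample titles. In ovary, deviations of same-numbered libraries from their group means correlated over 7934 genes at 0.267, 0.296 and 0.290, all above 0.1, so the block counts as a pairing there. No source says that replicates were separate animals or cultures, so p-values measure the spread between these libraries only. Replicate pairs within a group differed by far more than counting noise (chi-square per degree of freedom 6.91 to 87.4), so none was a copy. The depth per library was 13728168 to 20244538 counts. The floor of 3 counts covers counting error only.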

Additional observations from a re-analysis of the deposited data

Results flagged for a closer look

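The effect on psd differed between the sources in the main fit of a test added after the data were seen. Most alternative settings did not call this difference. The log2 fold change in mutant against wild-type ovary exceeded that in Mod(mdg4)-N KD against EGFP KD OSC by 2.44 (SE 0.54, edgeR adjusted p = 0.0479 over 9011 genes, 10 libraries). All 3 mutant ovary libraries were above all 3 wild-type libraries, which held for 23.6% of all genes tested in ovary. In OSC psd had 16 to 46 counts and was not called with Mod(mdg4)-N KD. The edgeR adjusted p of the difference was 0.0567 with RLE size factors, 0.0683 with the newer edgeR algorithm and 0.0631 with the replicate block. With total counts it was 0.0346, and with an ovary library left out it ran from 0.0201 to 0.0975. With an OSC library left out the difference ran from 2.03 to 2.96 on the log2 scale. The libraries of ovary and OSC also differ in tissue and genotype, which cannot be told apart from the kind of Mod(mdg4)-N loss.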

How the results depend on the processing

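In ovary the direction of 6 of the 7 genes and the median log2 fold change (1.36 to 1.42, and 1.10 to 1.65 with a library left out) held under every alternative run. The number of vitelline membrane genes called was 4 or 5 under the other settings and 0 to 4 with a library left out. Genes called in all were 1438, against 2365 with DESeq2, 2279 with the replicate block and 158 to 1438 with a library left out. The log2 fold change of Vml was -0.0018 without wild-type replicate 1 and at most 0.50 with another left out, and that of Vm26Ac was 2.45 with limma-voom, 2.35 with the replicate block and 2.51 with log2(TPM + 1), against 1.60. In OSC with Mod(mdg4)-N KD, 0 vitelline membrane genes were called throughout, while 2 genes in all became 7 (DESeq2), 1 (limma-voom), 26 (no filter), 14 (replicate block), 0 (joint OSC fit) and 4 to 42 with a library left out. Vml turned to -0.0095 with limma-voom, to -0.016 with log2(TPM + 1), to -0.026 without EGFP KD replicate 1 and to -0.28 without Mod(mdg4)-N KD replicate 2, and Vm26Aa to 0.05 without EGFP KD replicate 1 and 0.14 without Mod(mdg4)-N KD replicate 1, in ranges of -0.28 to 0.32 and -0.44 to 0.14 over the libraries left out. With Mod(mdg4)-All KD, the 89 genes called became 156 (total counts), 230.0 (DESeq2), 188 (no filter), 166 (replicate block), 144 (log2(TPM + 1)), 178 (joint OSC fit) and 29 to 333 with a library left out. The vitelline membrane genes called were 0 to 1 with a library left out (Vml without Mod(mdg4)-All KD replicate 2), and Vm26Aa ran from -1.12 to 0.25 (without Mod(mdg4)-All KD replicate 1). The cause of these changes was not tested. Deviations of same-numbered OSC libraries correlated at 0.217 and 0.148, but 2 pairs do not establish a pairing. Leaving out a library of a pair in OSC leaves 1 library, assumed to vary as the other group does. In OSC 4 of the genes had at most 4 counts in any library, where a fall or a small rise was not detectable at this depth.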
